A study of Sus scrofa with 22 samples.

Results

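The sequences described here are isomiRs of pig fat that ended in added uridines, that is, reads of a miRNA in its usual form followed by 1, 2 or 3 extra U at the 3′ end. For each miRNA name, the sequence with the most reads summed over all libraries was taken as the leading sequence, and every listed sequence made of that leading sequence plus 1 to 3 U was a member. This gave 231 members under 132 miRNA names, out of 8409 named sequences under 250 names. Member reads numbered 1923555, or 5.20% of all named reads. The members were chosen by their letters and by the read counts summed over all 22 libraries, which fixed the leading sequences, and every named member therefore lies at or below its leading sequence in summed reads. Whether the pig genome encodes the added U at any of these miRNAs was not analysed here, so an added U may be part of the hairpin.

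The study sequenced small RNA of subcutaneous fat from 22 female pigs aged 6 months, of the breeds Pietrain (4 with thick and 3 with thin subcutaneous fat), Large White (4 thick and 4 thin) and Hampshire (5 thick and 2 thin). No animal carried a stated treatment or allele, and the fat class is the only label besides breed that divides the pigs. The main readout is the ratio of a member's reads to the reads of its own leading sequence in the same library, in percent. A change in the level of the miRNA as a whole does not move that ratio. Ratios pooled over names do move with the levels of the miRNAs in them, since each name counts by its reads.

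The ends of miRNAs are not fixed. Terminal uridylyltransferases such as TUT4 and TUT7 add U to the 3′ end of precursors and mature miRNAs, and the exonuclease DIS3L2 degrades RNAs with long U tails. The let-7 precursors are the best-known substrates, through the RNA-binding protein LIN28, and mature miR-26a is a known target of TUT4. In fat, miR-143 and miR-148a are abundant and have been linked to adipocyte differentiation, and miR-27 is known to restrain it.

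The following sequences show members with most reads, members that differed between breeds, other forms or seed mates of these, and miR-101+UU. They are written 5′ to 3′ as in the deposited tables. Capitals mark the seed (bases 2 to 8) and the added U. First come the 3 forms of miR-143-3p, the most read member miRNA, and those of miR-26a.
miR-143-3p+U: uGAGAUGAagcacuguagcucU
miR-143-3p+UU: uGAGAUGAagcacuguagcucUU
miR-143-3p+UUU: uGAGAUGAagcacuguagcucUUU
miR-26a+U: uUCAAGUAauccaggauaggcuU
miR-26a+UU: uUCAAGUAauccaggauaggcuUU
miR-26a+UUU: uUCAAGUAauccaggauaggcuUUU
The next 3 share the seed CAGUGCA and differ widely in how often they carried a U.
miR-148a-3p+U: uCAGUGCAcuacagaacuuuguU
miR-148b-3p+U: uCAGUGCAucacagaacuuuguU
miR-152+U: uCAGUGCAugacagaacuuggU
These share the let-7 seed GAGGUAG.
let-7a+U: uGAGGUAGuagguuguauaguuU
let-7c+U: uGAGGUAGuagguugugugguuU
let-7f-5p+U: uGAGGUAGuagauuguauaguuU
let-7g+U: uGAGGUAGuaguuuguacaguuU
let-7i-5p+U: uGAGGUAGuaguuugugcuguuU
This pair shares the seed UCACAGU.
miR-27a+U: uUCACAGUggcuaaguuccgU
miR-27b-3p+UU: uUCACAGUggcuaaguucugcUU
This pair shares the seed ACCCGUA.
miR-99a+U: aACCCGUAgauccgaucuuguU
miR-100+U: aACCCGUAgauccgaacuugugU
The last share no seed: miR-21+U is among the members with most reads, miR-101+UU outnumbered its form with 1 U, and the other 4 differed between breeds.
miR-21+U: uAGCUUAUcagacugauguugacU
miR-103+U: aGCAGCAUuguacagggcuaugaU
miR-185+U: uGGAGAGAaaggcaguuccugaU
miR-127+U: uCGGAUCCgucugagcuuggcuU
miR-140-3p+U: aCCACAGGguagaaccacggacU
miR-101+UU: uACAGUACugugauaacugaUU

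Named reads per library ran from 430712 to 3136842, with a median of 1223577 in Hampshire, 1610826 in Pietrain and 2070610 in Large White, and the members above 0 in a library numbered 95 to 183. The smallest count above 0 was 6, so a listed 0 can stand for up to 5 reads. The longest listed sequence had 25 nucleotides, and for 65 names the leading sequence plus 3 U would exceed it, so long tails on long miRNAs could not be seen. Each breed was deposited as a table of its own, and breed and any batch that goes with it cannot be told apart. In Large White, the authors' deposited fold changes followed the labels less closely than in the other breeds. Across sequences with a base mean over 50, their correlation with thick minus thin was -0.999 for Pietrain, -0.923 for Hampshire and -0.625 for Large White, the negative sign being the direction of the deposited tables. With the labels of thick replicate 1 and thin replicate 1 exchanged, the Large White value was -0.899, so results with Large White libraries were also computed with the 2 exchanged and without both.

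Some abundant miRNAs were listed at 0 in single libraries, leading sequence and member alike, and a ratio could not be formed there. The leading sequence of miR-199ab-3p was at 0 in 7 libraries, among them 3 Pietrain, 3 Large White and 1 Hampshire, and ran from 3055 to 23287 reads in the others. Its member miR-199ab-3p+U was at 0 in the same 7 libraries and ran from 456 to 3553 reads in the others. The leading sequence of miR-199b-5p was at 0 in the same 7, that of miR-145-5p in 4 Hampshire libraries, and that of miR-21 in Large White thick replicate 3, where it ran from 3825 to 43770 reads elsewhere. The leading sequence of miR-320 was at 0 in Pietrain thick replicate 2 and ran from 145 to 2533 reads elsewhere. That of miR-328 was at 0 in Hampshire thin replicate 1, and those of miR-10a-5p and miR-122 in 2 libraries each. Why these values are 0 was not tested. The members of all these miRNAs entered no fit that holds the libraries at 0.

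Single additions dominated. The 132 members with 1 U held 90.9% of member reads, the 73 with 2 U held 8.34% and the 26 with 3 U held 0.767%. Of the 231 members, 167 were listed in all 3 breed tables, 74 were above 0 in every library, 28 were in 1 table only and 22 in 1 library only. The reads were concentrated: miR-143-3p alone held 43.2% of member reads, the 10 most read members held 72.7%, and the let-7 guide strands held 21.1%. The member letters were not always unique to a name, since miR-200b+U and miR-429+U were the same sequence, which leaves 230 distinct sequences.

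U was the base most often added. Of all reads with exactly 1 base added to a leading sequence, 46.0% carried U, 27.8% A, 18.6% G and 7.66% C. The share of U by reads rests in large part on miR-143-3p+U, which held 748171 of the 1748346 reads with a single U. Reads with a single A numbered 1057014 over all names. U was the most frequent added base in 87 of the 155 names with any single addition, A in 44, G in 16 and C in 8. Counting additions of 1 to 3 of the same base, A gave 206 sequences with 3.22% of named reads, G 93 with 1.94% and C 101 with 0.792%. Among the 113 names with both a single A and a single U, U had more reads in 71. For miR-125b the order was the other way, with 74919 reads of a single A against 18763 of a single U, and likewise for miR-100, with 69490 against 38037.

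The ratio differed far more between miRNAs than between pigs. Over the 132 names, member reads came to a median of 11.7% of leading reads. The value reached 50% in 20 names and stayed below 1% in 13 of the names with a member. Among the 61 names with at least 10000 leading reads, 58 had a member. The 3 without were miR-30a-5p with 233836 leading reads, miR-381-3p with 143149 and miR-148a-5p with 13758, while miR-30a-5p did have 17730 reads with a single A added. The leading sequence of miR-381-3p held 100% of the reads of its name, so no other form of any kind was listed with reads there. Among those 61 names the highest values were in miR-127 at 116%, miR-152 at 101%, miR-320 at 83.6%, miR-128 at 76.0%, miR-143-3p at 71.4%, miR-140-3p at 58.0%, miR-148b-3p at 52.1%, miR-30c-5p at 40.0%, let-7c at 32.8% and miR-328 at 29.3%. The values above 100% mean that the forms with added U together had more reads than the leading form. The ratio also depends on how much of its name the leading sequence holds, so shares of all reads of a name can rank differently. The leading sequence held 14.1% of the reads of its name in miR-140-3p, 22.9% in miR-320 and 23.2% in miR-127. It held 32.3% in miR-152, 50.3% in miR-148b-3p and 81.0% in miR-148a-3p.

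Sharing a seed did not mean sharing the ratio. The seed decides which targets a miRNA recognises, and the 3 miRNAs of seed CAGUGCA printed above ranged from 0.432% in miR-148a-3p, the most abundant leading sequence of these miRNAs with 5822640 reads, to 52.1% in miR-148b-3p and 101% in miR-152. In the ACCCGUA group, miR-99a stood at 0.190%, miR-100 at 12.5% and miR-99b at 14.5%. In the GUAAACA group, miR-30b-5p stood at 1.12% and miR-30c-5p at 40.0%. In the CCCUGAG pair, miR-125a had 1.57% and miR-125b 20.6%. In the UCACAGU pair, miR-27b-3p had 4.07% and miR-27a 27.4%. In the GAGAACU pair, miR-146a-5p, a regulator of inflammatory signalling, had 12.0% and miR-146b 84.3%. The miR-10 pair was low in both, at 0.413% in miR-10b and 0.555% in miR-10a-5p.

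The 8 let-7 guide strands ran from 3.10% in miR-98 to 32.8% in let-7c. Between these lay let-7g at 5.17%, let-7f-5p at 6.06%, let-7a at 6.15%, let-7i-5p at 8.04%, let-7d-5p at 9.30% and let-7e at 10.3%. The name let-7c held 2 abundant sequences. Its leading sequence, with 352916 reads, carries the letters known as let-7b in other mammals, and the other, with 282268 reads, differs from it by G17A, counted from the 5′ end of the leading sequence. The G17A form, which is not a member by the rule, had far fewer additions.
leading with 1 U: uGAGGUAGuagguugugugguuU
G17A form with 1 U: uGAGGUAGuagguuguaugguuU
The ratio of the form with 1 U was 28.7% for the leading sequence and 6.40% for the G17A form. Per library it ran from 24.2% to 32.9% for the leading sequence and from 5.38% to 8.06% for the G17A form, so the ranges over the 22 libraries did not overlap.

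Longer tails were not in a fixed proportion to single additions. For miR-143-3p, the forms with 1, 2 and 3 U had 748171, 75006 and 7520 reads. For let-7a they had 73301, 1583 and 56. miR-26a, the known TUT4 target, had 47474, 16271 and 644, miR-127 had 12198, 6272 and 299, and miR-27b-3p had 7835, 6246 and 82. In 3 names the form with 2 U outnumbered that with 1 U. These were miR-101 with 1649 against 403 reads, miR-9841-3p with 54 against 19 and miR-193a-3p with 196 against 190. let-7i-5p had 102962 reads with 1 U and no listed form with 2 or 3 U, although its leading sequence has 22 nucleotides, as has that of let-7a. Of the 5 members with 2 or 3 U that had the most reads, miR-143-3p+UU and miR-26a+UU came first, followed by let-7c+UU with 12888 reads, miR-143-3p+UUU and miR-152+UU with 6987.

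The base before the addition also differed. Names whose leading sequence ended in U had a median ratio of 7.11% where they had a member, those ending in A 4.70%, in C 21.4% and in G 23.5%. With at least 10000 leading reads, and names without a member set to 0, the medians were 5.62% for U (36 names), 13.0% for A (7), 18.1% for C (10) and 17.5% for G (8). A leading sequence that ends in U can itself be a shorter form with an added U, which the rule does not count.

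The last base of a read was often C where the leading sequence has U. In the 36 names with at least 10000 leading reads that end in U, reads with C in place of that U came to a median of 14.5% of leading reads, with quartiles of 13.8% and 15.5%. Additions of a single C showed a similar proportion to additions of a single U, with a median of 14.0 C per 100 U over 58 names with at least 1000 reads of the single U form, and quartiles of 12.3 and 16.0. In the 10 such names that end in C, reads with U in its place came to a median of 17.6% of leading reads. The let-7a form with C in the last place, U22C, had 173780 reads, but only 0.124% as many carried a further U, against 6.02% for the leading let-7a. The cause was not tested.

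The order of miRNAs by their ratio was much alike in all pigs. Over the 19 names with at least 1000 leading reads in every library, Spearman's rho between 2 libraries had a median of 0.988 and a lowest value of 0.928. These correlations are across miRNAs, all libraries share the same leading sequences, and they are given as a description.

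Across libraries, the pooled ratio (all member reads over all leading reads of the 132 names) was 11.1% ± 1.02 in Pietrain (SD, n = 7, range 9.00 to 12.1), 10.5% ± 2.40 in Large White (n = 8, range 8.41 to 15.9) and 7.37% ± 0.948 in Hampshire (n = 7, range 6.49 to 9.08). Hampshire overlapped the others only at its top. The highest value, 15.9%, was in Large White thick replicate 1, and without miR-143-3p that library stood at 6.53%. Without miR-143-3p the breeds stood at 6.35% ± 0.546, 6.32% ± 0.543 and 4.40% ± 0.295, and the Hampshire range of 3.79 to 4.74 lay below the lowest library of the other breeds at 5.72. The pooled ratio counts each name by its reads, so it also moves with miRNA levels. miR-148a-3p, at a U ratio of 0.432%, had 5822640 leading reads, and its leading sequence stood at a higher median level in Hampshire, as given below. The part of this in the pooled difference was not tested. The median over the 19 well-read names hardly separated the breeds, at 5.83% ± 0.387 in Hampshire beside 5.68% ± 0.376 in Large White and 6.08% ± 0.380 in Pietrain.

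The ratio was then tested for each sequence with edgeR's quasi-likelihood test, with the leading count of the same library as offset and Benjamini-Hochberg adjustment over all sequences tested. Only sequences expected to reach 20 reads in every library of a fit were tested, which kept 50 of the 231 members in fits over all libraries. Members of the same miRNA name share their leading reads, so their results are not independent. Nothing in the labels names cultures, litters or batches, so p-values reflect only how these libraries vary, which may be technical, and both Hampshire comparisons use the same Hampshire libraries.

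More members had a lower than a higher ratio in Hampshire, among them those of miR-148a-3p, miR-103, miR-185, miR-26a and miR-143-3p. Against Large White, 35 of 50 members passed an adjusted p of 0.05, where 43.6% of all 592 sequences passed. Of these members 29 were lower in Hampshire, against 20.3% of all sequences, and 6 were higher, against 23.3%. Against Pietrain, 29 of 50 members passed, where 51.7% of all sequences did, with 23 lower against 22.3% of all and 6 higher against 29.4%. The median log2 change of the ratio over the tested members was -0.31 against Large White and -0.26 against Pietrain, beside 0.02 and 0.06 over all sequences. The 23 members lower than in Pietrain were also lower than in Large White, the same 6 were higher in both, and 15 passed in neither.

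The pooled means of the other added bases were also lower in Hampshire, with ranges that overlapped those of the other breeds, and these pooled differences were not tested. These pooled values divide all reads with the added base, under any name, by the leading reads of the 132 names with a U member. They are therefore not a share of each miRNA's own leading reads. A additions came to 5.25% ± 0.401 (SD) of these leading reads in Hampshire beside 6.09% ± 0.593 in Large White and 6.46% ± 0.649 in Pietrain. G additions came to 3.01% ± 0.469 beside 3.76% ± 0.758 and 3.89% ± 0.329, and C additions to 1.23% ± 0.126 beside 1.61% ± 0.387 and 1.59% ± 0.201. In the same fits, G additions gave 3 higher and 5 lower of 16 against each breed, with median log2 changes of -0.20 against Large White and -0.25 against Pietrain. C additions gave 2 higher and 6 lower of 19 against Large White, with a median of -0.14, and 2 higher and 5 lower against Pietrain, with a median of -0.07. Single or repeated A additions split into 12 higher and 14 lower of 45 against Large White, with a median of -0.05, and 7 higher and 16 lower against Pietrain, with a median of -0.11. Single trimmed sequences gave more higher than lower calls, whereas their pooled mean was lowest in Hampshire. Over all names, reads trimmed by 1 to 3 bases at the 3′ end came to 15.7% ± 1.69 (SD) of leading reads in Hampshire. They came to 16.4% ± 1.37 in Large White and 17.2% ± 0.814 in Pietrain, with overlapping ranges, and this pooled difference was not tested. Among the 86 sequences trimmed by 1 to 3 bases at the 3′ end, 44 were higher and 2 lower in Hampshire than in Large White, with a median log2 change of 0.28. Against Pietrain the trimmed sequences gave 37 higher and 3 lower, with a median of 0.20. Whether U additions differ from the other classes was not tested. The mean length of named reads was 21.8 nucleotides in Hampshire and 21.9 in both other breeds. Reads with C in place of a last U were at 15.4% ± 0.465 of leading reads in Hampshire, 14.4% ± 0.412 in Large White and 13.7% ± 0.865 in Pietrain. The part of depth, read length and last-base changes in the breed difference was not tested.

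Among the tested members, miR-148a-3p+UU had the largest change of ratio and miR-148a-3p+U the smallest p in both comparisons with Hampshire. miR-148a-3p is abundant and known to promote adipogenesis. miR-148a-3p+U was at 0.181%, 0.225% and 0.254% of leading reads (lowest, median and highest) in the 7 Hampshire libraries. It was at 0.382%, 0.441% and 0.592% in the 8 Large White libraries and at 0.382%, 0.479% and 0.649% in the 7 Pietrain libraries. Every Hampshire library lay below every other library. The log2 change was -1.07 ± 0.13 (SE) against Large White (edgeR, adjusted p = 2.96e-06) and -1.19 ± 0.13 against Pietrain (adjusted p = 5.81e-07). The miR-148a-3p leading sequence stood at a median of 208223 CPM in Hampshire, 149124 in Large White and 139396 in Pietrain. Here and below, CPM are counts scaled to TMM library sizes, so they are not shares of the named reads. On the scale of levels, with TMM library sizes in place of the leading reads, miR-148a-3p+U changed by -0.41 and -0.45 and did not pass (adjusted p = 0.0776 and 0.0589). miR-148a-3p+UU was lower still in ratio, by -1.46 ± 0.20 (adjusted p = 1.03e-05) and -1.71 ± 0.20 (adjusted p = 1.35e-06), and its ranges also did not overlap, with a Hampshire maximum of 0.0205% below a minimum of 0.0342% elsewhere. As levels with DESeq2 size factors, miR-148a-3p+UU changed by -0.74 and -0.97 and passed. Of its seed mates, miR-148b-3p+U fell by 0.42 and 0.29, whereas miR-152+U was at 0.05 and 0.09 and did not pass, with Hampshire values spread from 73.9% to 119%.

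miR-26a, abundant in adipose tissue, showed the same direction in both tested forms. miR-26a+UU ran from 0.456% over a median of 0.563% to 0.713% in Hampshire, from 0.883% over 1.26% to 1.56% in Large White, and from 0.991% over 1.38% to 1.85% in Pietrain. Hampshire did not overlap the other breeds. The log2 change was -1.12 ± 0.16 against Large White (edgeR, adjusted p = 2.51e-05) and -1.31 ± 0.17 against Pietrain (adjusted p = 4.03e-06). miR-26a+U changed by -0.69 ± 0.11 and -0.81 ± 0.11, with a Hampshire median of 1.97% beside 3.62% and 3.83%. As a level with DESeq2 size factors, the change of miR-26a+U against Large White was -0.43 and passed. The third form, miR-26a+UUU, was too rare to be tested, at a median of 0.0201% in Hampshire, 0.0542% in Large White and 0.0477% in Pietrain.

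miR-143-3p, the miRNA with the largest share of member reads and a miRNA of smooth muscle as well as of adipocytes, was lower in all 3 forms. miR-143-3p+U ran from 36.5% over a median of 44.5% to 55.5% in Hampshire, from 61.0% over 73.8% to 83.6% in Large White, and from 61.5% over 79.2% to 87.3% in Pietrain. The Hampshire libraries lay below all others. The log2 change was -0.66 against Large White (edgeR, adjusted p = 8.45e-05) and -0.74 ± 0.11 against Pietrain (adjusted p = 2.59e-05). On the scale of levels with TMM library sizes, the change of miR-143-3p+U against Pietrain was -0.39 and did not pass (adjusted p = 0.198). The form miR-143-3p+UU changed by -0.83 and -0.81, and miR-143-3p+UUU by -0.93 and -0.68, all passing.

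2 less abundant members were also among those with the smallest p. miR-103+U, from a miRNA studied for insulin sensitivity in fat, had a Hampshire median of 6.16% beside 10.4% in Large White and 10.5% in Pietrain. Its log2 change was -0.85 ± 0.11 (edgeR, adjusted p = 4.85e-06) and -0.81 ± 0.11 (adjusted p = 7.39e-06), and 1 Hampshire library, at 8.69%, reached into the range of the others. As a level with TMM library sizes, miR-103+U changed by -1.99 and -1.91, and the miR-103 leading sequence stood at a median of 1970 CPM in Hampshire, 3537 in Large White and 3485 in Pietrain. miR-185+U had a Hampshire median of 9.94% beside 21.0% and 19.8%, with no overlap, and changed by -1.05 ± 0.15 (adjusted p = 1.79e-05) and -1.01 (adjusted p = 3.32e-05).

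The 8 tested let-7 members, of 16 in all, split. In both comparisons 5 were lower in Hampshire, namely let-7a+U, let-7c+UU, let-7d-5p+U, let-7g+U and let-7i-5p+U, and let-7f-5p+U was higher in ratio. Of all 50 tested members 29 and 23 were lower, and of all sequences 20.3% and 22.3%, and nothing particular to let-7 was tested. The largest decrease against Pietrain among them was that of let-7i-5p+U at -0.55, with a Hampshire median of 6.24% beside 8.67% in Pietrain and 8.25% in Large White. let-7a+U changed by -0.15 and -0.23, a median of 5.49% beside 5.92% in Large White and 6.28% in Pietrain. let-7c+U, at a median of 26.4% in Hampshire, 28.7% in Large White and 30.6% in Pietrain, did not pass, nor did let-7e+U. The forms that were not tested, among them let-7a+UUU, let-7f-5p+UU and miR-98+U, were too rare.

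let-7f-5p+U was one of the 6 members with a higher ratio in Hampshire. It ran from 6.54% over a median of 8.42% to 10.4% in Hampshire, from 4.88% over 5.51% to 6.24% in Large White, and from 5.51% over 5.96% to 6.64% in Pietrain. The log2 change of the ratio was 0.57 ± 0.09 against Large White (edgeR, adjusted p = 5.37e-05) and 0.43 ± 0.09 against Pietrain (adjusted p = 0.000663), whereas on the scale of levels with TMM library sizes let-7f-5p+U was lower in Hampshire, by -0.79 and -0.95 (adjusted p = 0.00189 and 0.000408). The let-7f-5p leading sequence stood at a median of 14309 CPM in Hampshire, 34552 in Large White and 36633 in Pietrain, so the leading reads were lower by more than the reads with added U.

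miR-27b-3p, known to restrain adipogenesis, had higher ratios in Hampshire that were also higher as levels. miR-27b-3p+UU ran from 2.25% over a median of 2.70% to 4.47% in Hampshire, from 1.10% over 1.56% to 2.05% in Large White, and from 1.19% over 1.28% to 1.63% in Pietrain. The Hampshire libraries lay above all others. The log2 change was 0.84 ± 0.15 against Large White (edgeR, adjusted p = 0.000241) and 1.05 ± 0.16 against Pietrain (adjusted p = 3.32e-05), and for miR-27b-3p+U it was 0.64 ± 0.14 and 0.76 ± 0.15. Against all reads of the name, miR-27b-3p+U changed by 0.38 against Large White and passed. Its seed mate miR-27a+U was at -0.13 and 0.02 and did not pass, with medians of 21.7% in Hampshire, 24.3% in Large White and 23.5% in Pietrain.

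The other 3 members with higher ratios depended on the denominator. miR-140-3p+U, from a miRNA best known in cartilage, had a median of 78.1% in Hampshire beside 54.7% in Large White and 54.1% in Pietrain and log2 changes of 0.49 ± 0.11 (edgeR, adjusted p = 0.00147) and 0.46 ± 0.11, but its level with TMM library sizes was lower, by -0.85 and -1.32. miR-127+U, from the imprinted DLK1-DIO3 region, had a median of 91.1% beside 64.9% and 69.1% and changes of 0.42 ± 0.11 (adjusted p = 0.00305) and 0.35 ± 0.11 (adjusted p = 0.0117), while its level with TMM library sizes was at -0.05 and 0.49 and did not pass. Against all reads of the name in place of the leading reads, neither miR-140-3p+U nor miR-127+U passed. miR-378+U, from a miRNA within the gene of the coactivator PGC-1beta, had a median of 19.6% beside 16.2% and 16.1% and changes of 0.34 ± 0.09 (adjusted p = 0.00330) and 0.35 ± 0.09 (adjusted p = 0.00321), while its level with TMM library sizes was at 0.22 and 0.25 and did not pass. Without Hampshire thin replicate 2 the change of miR-378+U was 0.23 against both breeds and did not pass (adjusted p = 0.0688 and 0.0565), and without Hampshire thin replicate 1 that of miR-127+U against Pietrain was 0.31 (adjusted p = 0.0610).

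Among the other members with most reads, miR-100+U was lower in Hampshire, by -0.24 (edgeR, adjusted p = 0.00644) and -0.31 (adjusted p = 0.000989). Of 13 miRNAs chosen for their known roles in fat, all had members, 26 in all, of which 11 were tested. Against Large White 8 of these were lower and 1 higher, and against Pietrain 7 and 1, beside 29 lower and 6 higher, and 23 and 6, of all 50 tested members. The lower ones include miR-143-3p+U, +UU and +UUU, and miR-148a-3p+U and +UU, so these are not counts of separate miRNAs. Over all sequences 20.3% were lower and 23.3% higher against Large White, and 22.3% and 29.4% against Pietrain. Of the miR-30 family, miR-30c-5p+U alone could be tested, of 4 members, and it was lower by -0.39 and -0.35. miR-21+U, from a miRNA abundant in many tissues, could not be tested between breeds, and its medians were close, at 17.8% in Hampshire, 18.2% in 7 Large White libraries and 17.6% in Pietrain.

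Between Pietrain and Large White no member of 50 passed (edgeR, 0 calls), where 6.59% of all sequences did. At an unadjusted p under 0.05 there were 3 members, where 22% of all sequences passed, and DESeq2 and limma also called 0. The median log2 change was -0.04 over the members and -0.03 over all sequences.

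Fat class, the contrast the study was labelled for, gave 1 call among the members. In Pietrain 1 of 74 tested members passed (edgeR), where 6.05% of the sequences tested did. This was miR-146a-5p+U, at 11.2%, 12.4%, 13.4% and 14.1% of leading reads in the 4 thick libraries and 9.85%, 8.68% and 7.27% in the 3 thin libraries. The classes did not overlap. The log2 change, thick minus thin, was 0.57 ± 0.15 (edgeR, adjusted p = 0.0475). It did not pass with DESeq2 (adjusted p = 0.05003) or limma (adjusted p = 0.0540), with all reads of the name as denominator (0.48, adjusted p = 0.0653), or without Pietrain thick replicate 2, 3 or 4 or thin replicate 2 or 3 (adjusted p from 0.0972 to 0.224). Those next in p were miR-151-3p+UUU at 0.64 (adjusted p = 0.0773) and miR-27a+U at 0.35 (adjusted p = 0.150) upward, and miR-155-5p+U at -0.49 (adjusted p = 0.115), miR-148a-3p+UU at -0.53 (adjusted p = 0.250) and miR-451+UU at -0.51 (adjusted p = 0.262) downward, none of which passed. Each of 3 passed under another setting, miR-151-3p+UUU with all reads of the name (adjusted p = 0.0228), miR-27a+U without Pietrain thin replicate 1 (adjusted p = 0.0249) and miR-148a-3p+UU with no count minimum (adjusted p = 0.0376).

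In Large White 0 of 67 tested members passed with edgeR, where 0% of 812 sequences did, and 4 members had an unadjusted p under 0.05, as did 2.71% of all. DESeq2 and limma also called 0, as did edgeR with the 2 doubtful libraries exchanged and without both. miR-126-5p+U had the smallest p, at -0.33 ± 0.11 (unadjusted p = 0.0124 in edgeR, adjusted p = 0.992). In Hampshire 0 of 51 passed with edgeR, where 0% of 665 sequences did, with 1 member under an unadjusted p of 0.05 (4.21% of all sequences) and 0 calls by DESeq2 and limma. That member was miR-28-3p+U, at 0.47 ± 0.16 (adjusted p = 0.986), and with 2 thin libraries this comparison was the least precise. In the fit of all libraries, with a term for breed, 0 of 50 members passed, where 0% of 592 sequences did, 0 had an unadjusted p under 0.05 (6.08% of all sequences), and DESeq2 and limma called 0. The 95% interval of the fat effect over all breeds was -0.22 to 0.01 for miR-100+U, the downward member of smallest p in that fit. A difference in the fat effect between breeds was found for 0 of 50 members, where 0.338% of all sequences passed, with 4 at an unadjusted p under 0.05 (11.5% of all sequences) and 0 by DESeq2 and limma. No let-7, miR-26 or miR-30 member and none of the fat list passed in any of the 4 fat comparisons.

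In the authors' deposited tables of fat classes, which compare levels and not ratios, no member passed an adjusted p of 0.05. They listed 163 members with an adjusted p in Pietrain, where 1.89% of sequences passed, 219 in Large White, where 0% did, and 177 in Hampshire, where 0.0187% did.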

How the data were processed

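Small RNA was read from pig subcutaneous fat kept in RNAlater, from RNA with an integrity number above 7.5, with the NEBNext small RNA kit, gel size selection and 36 cycles on an Illumina HiScan SQ, per the labels' protocols. The authors deposited, per breed, raw read counts for each sequence and miRNA name. They also deposited DESeq2 results, per the file headers, with a mean signal, log2 fold changes with standard errors, a Wald score and p-values. Named without a role in the submitters' processing notes are bcl2fastq, FastQC and DESeq2, with the build Sscrofa10.2, and trimming, alignment and the filter that left 6 as the smallest count are not given in the sources used here.

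Sequences without a miRNA name were left out, and a sequence absent from a breed table counted as 0 there. Where 2 sequences tied for leading, which happened in 3 names, the alphabetically first was taken, and of these names only miR-215 has a member. Ratios were tested with edgeR 4.0.16 (robust quasi-likelihood, R 4.3.3). The offset was the log leading count, and a count of at least 20 was expected in every library from the pooled ratio. The fit over breeds held 6 groups, with fat classes weighted equally. A standard error is the log2 change over the square root of F. Alternatives were DESeq2 1.42.0, limma 3.58.1 with 0.5 added to reads, other denominators, other count minimums and left-out libraries. Named members are the 10 with most reads, the 10 names of highest ratio with 10000 leading reads, up to 6 of smallest p per direction and comparison (3 where fat classes gave under 3 calls), the 5 most read with 2 or 3 U, and the let-7 and miR-26 lists. Other members were named after their values were seen, to show shared seeds, other added bases or tail lengths. The members, lists (let-7, miR-26, miR-30, fat miRNAs) and tests were chosen with earlier results of these data known.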

Additional observations from a re-analysis of the deposited data

Results flagged for a closer look

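Within groups of 4 or 5 libraries, 8 values stood apart by Dixon's criterion at the 95% level among 142 groups examined, and chance alone flags about 1 in 20 groups. In Large White thick fat, let-7i-5p+U was highest in replicate 1 at 8.59%, with the next library at 8.17%. In the same group miR-152+U was highest in replicate 4 at 98.2%, with the next at 86.5%, and all U forms of miR-152 together reached 107.03% there, with the next at 95.9%. In Large White thin fat, replicate 1 had the lowest miR-152+U at 85.3% and the lowest sum of miR-152 forms at 94.4%, with the next libraries at 96.3% and 106.97%. Large White thick replicate 1 and thin replicate 1 are the 2 libraries that fitted the authors' deposited comparison better when exchanged. The sum of miR-128 forms was highest in Large White thin replicate 3 at 106%, with the next at 80.4%. The sum of miR-328 forms was highest in Pietrain thick replicate 3 at 37.7%, with the next at 28.6%. In Hampshire thick fat, miR-103+U was highest in replicate 2 at 8.69%, with the next at 6.61%. No tested member of these miRNAs passed between fat classes.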

How the results depend on the processing

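Of 1109 alternative values of single named members, 1060 kept direction and call, 27 lost the call, 3 gained it and 19 changed sign. In the Pietrain fat comparison the count of members, 1, became 0 with DESeq2, limma or an expected count of at least 50, and 2 with no minimum. With all reads of the name it was 1 but another member, miR-151-3p+UUU in place of miR-146a-5p+U. Leaving out each library gave 0 to 2. Pietrain against Large White gave 1 with all reads of the name as denominator and 1 with no minimum. Hampshire against Large White gave 23 of 30 tested members with an expected count of at least 50, which tests fewer members, and leaving out each library gave 28 to 36 (22 to 31 against Pietrain). Exchanging the 2 Large White libraries gave 35 and leaving out both gave 33. As levels (TMM, then DESeq2 size factors), 27 and 26 passed against Large White, of which 20 and 19 were among the 35 ratio calls, and 25 and 26 against Pietrain, of which 16 and 16 were among the 29. The mean pooled ratios of Pietrain, Large White and Hampshire were 6.05%, 5.72% and 4.22% against all reads of the names, and 6.35%, 6.32% and 4.40% without miR-143-3p, an alternative chosen after seeing the data. Signs changed as levels (TMM, then DESeq2 size factors) for let-7f-5p+U (-0.79 and -0.72 against Large White, -0.95 and -0.92 against Pietrain) and miR-140-3p+U (-0.85 and -0.79, -1.32 and -1.29), and with TMM for miR-127+U (-0.052 against Large White). With all reads of the name, miR-140-3p+U was at -0.041 against Pietrain. Among fat effects that did not pass, miR-339-5p+U was at -0.22 exchanged and -0.020 without both Large White libraries, miR-186+U between -0.74 and 0.30 when leaving out each Hampshire library (0.30 without thin replicate 2), miR-140-3p+U over all breeds at -0.0030 exchanged and -0.030 and -0.0085 as levels, miR-126-3p+U at 0.024 and 0.030 as levels, and miR-151-3p+UU at 0.00027 exchanged. The causes were not tested. Restricting the ratio to members not matching the hairpin was not run. No paired analysis was possible, since each pig belongs to 1 breed and 1 fat class and the labels link no pigs across groups. Depth limits rare members: 181 of 231 were not tested over all libraries.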
